A study of Mus musculus with 12 samples.

Results

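The 3 tumors described here were the vehicle-treated controls, labelled CK, of an experiment with 12 MC38 tumors. These tumors were chosen by that label alone, and no treated tumor entered any value. MC38 is a mouse colorectal adenocarcinoma line of C57BL/6 origin. The cells were injected under the skin of female C57BL/6 mice aged 5 weeks, tumors were allowed to form, and the animals were then randomised to CK, PB-020 (an IGF-1R inhibitor), anti-PD-1 or both agents. The study's methods name DMSO in corn oil, given by gavage, as the carrier of the oral compound. Whole tumors were ground in liquid nitrogen, so each library held RNA of the cancer cells and of every host cell in the mass. MC38 is a single line and the tumor grew outside the colon, which limits all 3 tumors as a model of colon tissue. In such bulk RNA, fewer cells of a type and less RNA per cell cannot be told apart.

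As background, a tumor transplanted under the skin recruits fibroblasts, vessels and immune cells of the host, and its growth depends on ligands that act on receptor tyrosine kinases. IGF-1R is such a receptor. It binds IGF1 and IGF2, signals through insulin receptor substrates to PI3K and AKT, and is held in check by IGF-binding proteins that sequester the ligands and by IGF2R, which clears IGF2. PD-1, encoded by Pdcd1, is an inhibitory receptor of activated T cells, and its ligand PD-L1, encoded by Cd274, can be raised on tumor and myeloid cells by interferons.

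Levels are given in TPM (transcripts scaled to a fixed total), a unit that corrects for transcript length and sums to the same total in each library, so that levels of different genes can be compared. Where 3 values stand in a row they belong to CK_1, CK_2 and CK_3 in that order, and an SD is over these 3 tumors. The libraries held 17217035, 16989365 and 16732304 expected counts. Of 18211 genes in the table, 12105 reached 1 TPM in every tumor and 1232 were listed at 0 TPM in all 3. A count of 0 allows up to 3 counts in a library, or 0.174 to 0.179 CPM (counts per 1e6 expected counts), and this limit covers counting error only.

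The 3 tumors were not equally alike. Across all genes, the Spearman correlation of levels was 0.990 between CK_1 and CK_2, 0.984 between CK_1 and CK_3 and 0.984 between CK_2 and CK_3, given as a description, since genes of a library are not independent. Among 9049 genes with a mean of at least 10 TPM, 152 differed at least 2-fold between the highest and the lowest tumor, which is 1.68% of them. CK_3 was the highest tumor in 123 of these 152 and the lowest in 15. With CK_3 left out, 21 genes differed 2-fold between CK_1 and CK_2. CK_3 lay at least 2-fold above both others in 63 genes and 2-fold below both in 6. CK_3 therefore stood apart from the other tumors, and values that rest on it are given for each tumor below.

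The most abundant transcripts were those of the translation machinery. Eef1a1, the elongation factor that brings aminoacyl-tRNA to the ribosome, was the highest gene at 14343, 14480 and 12893 TPM. It stood clear of Tpt1, a tubulin-binding growth-related protein, at 7380, 8230 and 7389 TPM. Ribosomal protein genes made up 12 of the 20 and 62 of the 100 most abundant genes. All 82 ribosomal protein genes together took 23.1%, 22.6% and 22.7% of TPM, so this share was almost the same in the 3 tumors. The highest of them were Rps27, Rpl23a and Rps26. Rps27 measured 6504, 7410 and 8738 TPM. Rps12, Rps10, Rps2, Rpl10, Rpl12, Rps23, Rpl35, Rps15 and Rplp1 completed the ribosomal members of the 20 highest, between 4276 and 5542 TPM in every tumor.

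Outside translation, the 20 highest genes held B2m, the light chain of MHC class I, Lgals1 (galectin-1), Gapdh, S100a4 and Ppia (cyclophilin A). B2m had the widest spread among them, at 6455, 5115 and 8400 TPM (6657 ± 1652, SD, n = 3), with CK_2 lowest and CK_3 highest. Ppia measured 5289, 4695 and 5374 TPM. LOC105244208, which RefSeq names Rps6-ps4 and annotates as a pseudogene, ranked 10 at 6082, 6133 and 5573 TPM. Its parent gene Rps6, an essential small-subunit protein, was listed at only 69.7, 75.7 and 76.4 TPM. The pair gave a ratio of 80.4 ± 7.16 (SD, n = 3) in favour of the pseudogene. Reads of near-identical copies could be assigned to either, so neither level can be read as that of its own locus.

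**Figure D1:**
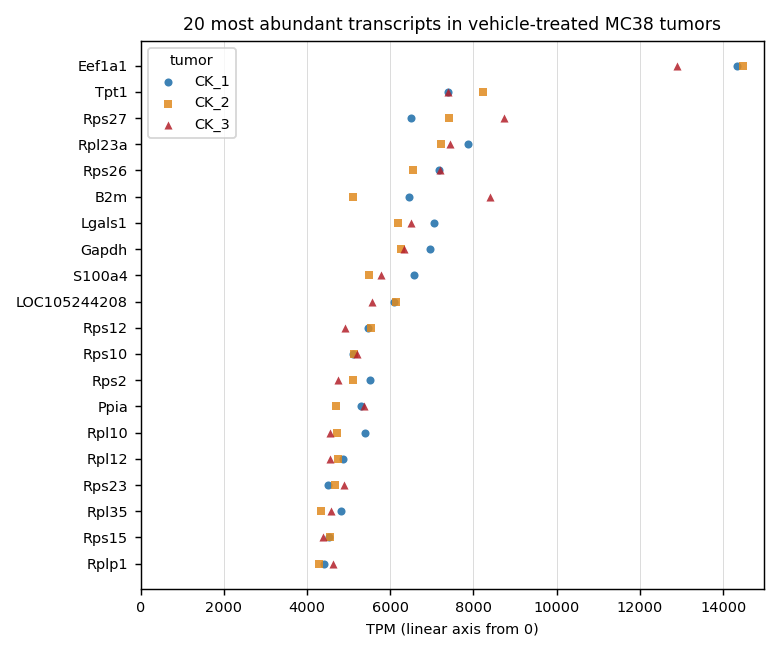
TPM (linear axis from 0) of the 20 genes with the highest mean over the vehicle-treated tumors, with 1 point for each of CK_1, CK_2 and CK_3. Eef1a1 lies apart at 12893 to 14480 TPM, and B2m has the widest spread, from 5115 in CK_2 to 8400 in CK_3.

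Abundance was concentrated but not extreme. The 10 highest genes took 7.52% of TPM, the 100 highest 34.8% and the 1000 highest 65.2%. A mean of at least 1000 TPM was reached by 137 genes and of at least 100 TPM by 1523 genes. The median level of the 12444 genes with a mean of at least 1 TPM was 23.2 TPM.

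For most genes the tumors were close. The median coefficient of variation (CV, the SD as a percentage of the mean) over those 12444 genes was 7.74%, against 4.09% expected from counting error alone at their median counts. The median SD of log2(TPM + 1) was 0.10. The counts of any pair of tumors differed by more than sampling noise, with a mean chi-square per gene of 7.91 for CK_1 and CK_2, 13.6 for CK_1 and CK_3 and 15.3 for CK_2 and CK_3, where counting error alone gives 1. No pair therefore looked like 1 library deposited 2 times.

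Colon epithelial genes were nearly absent from the profile and mesenchymal genes were abundant. Of the 20 colon epithelial markers 16 were in the table, and their median was 0.0883 TPM. Epcam, the epithelial adhesion molecule, was at 0.16, 0.17 and 0.17 TPM. The keratin gene Krt18 was listed at 0 in all 3 tumors, Krt8 did not exceed 0.20 TPM, and Cdx2, the intestinal transcription factor, did not exceed 0.11 TPM. The highest of the list were Lgals4, an intestinal galectin, at 12.9, 14.7 and 11.2 TPM, Cdh1 (E-cadherin) at 4.31, 4.25 and 2.85 TPM, and Krt19 at 0.13, 0.44 and 0.84 TPM. The defining epithelial markers of the labelled colon origin were therefore near 0, apart from Lgals4 and low Cdh1.

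By contrast, all 12 mesenchymal genes were above 10 TPM in every tumor. Lgals1 measured 7063, 6192 and 6510 TPM, S100a4 (a calcium-binding protein of motile cells) 6572, 5479 and 5784 TPM, and the intermediate filament gene Vim 3845, 3895 and 3366 TPM. Lgals1 exceeded Lgals4 by a ratio of 515 ± 84.0 (SD, n = 3). The transcription factors of this state were all present, with Zeb2, Twist2, Twist1, Snai2, Snai1 and Zeb1 between 33.1 and 66.8 TPM. Host fibroblasts and macrophages also express these genes, so their level is not that of the cancer cells alone.

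Proliferation genes were high, with a median of 121 TPM. None of the 20 differed 2-fold between tumors, which is near the 1.68% of all genes with a mean of at least 10 TPM. Pcna, the sliding clamp of DNA replication, measured 491, 449 and 481 TPM. Ube2c, which drives exit from mitosis, measured 393, 363 and 345 TPM, and Top2a 308, 264 and 261 TPM. CK_1 was the highest tumor in 19 of 20 members, whereas it was alone the highest in 21.7% of the 16979 genes above 0 TPM in any tumor. The size was small, with a median shift of CK_1 of 0.10 on the log2 scale against -0.04 over all genes with a mean of at least 1 TPM.

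Glycolytic genes were among the highest enzymes. Gapdh measured 6944, 6256 and 6325 TPM, Eno1 3652, 3382 and 2845 TPM, and Pkm, the last kinase of glycolysis, 2553, 2404 and 2053 TPM. Ldha, the lactate dehydrogenase subunit that favours lactate production, measured 1813, 1677 and 1520 TPM, while its partner Ldhb stayed at 2.80, 2.54 and 3.71 TPM. The pair were far apart in each tumor, with a ratio of 572 ± 141 (SD, n = 3). Hk1 exceeded the inducible Hk2 by 3.92 ± 0.490 (SD, n = 3). The hypoxia-induced genes Vegfa, Slc2a1 and Bnip3 measured 176, 217 and 165 TPM, 120, 123 and 116 TPM, and 264, 263 and 205 TPM. CK_3 was the lowest tumor in 17 of the 24 genes of this list, against 28.6% of genes above 0 TPM. Among genes with a mean of at least 1 TPM, that share was 32.7%.

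Among cancer genes, Trp53 had the highest transcript level, at 465, 478 and 534 TPM, followed by Ctnnb1 (beta-catenin) at 374, 398 and 327 TPM and Ccnd1 (cyclin D1) at 324, 321 and 277 TPM. Values of neighbours in this order did not overlap for Trp53 and Ctnnb1 (465 against 398 at the nearest). Myc followed at 139, 148 and 133 TPM. The CDK inhibitors Cdkn2a and Cdkn2b did not exceed 0.77 and 0.61 TPM, and Cdkn1a, a p53 target, stood at 78.9, 93.6 and 79.0 TPM. Nras and Hras lay between 41.2 and 80.4 TPM. A transcript level says nothing of mutations, which were not measured.

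Genes reported to give neoantigens in MC38 were all transcribed. The highest were Rpl18 at 2970, 2764 and 2628 TPM, Aatf at 79.7, 74.4 and 72.8 TPM, and Cpne1 at 66.2, 69.9 and 68.6 TPM. Dpagt1 measured 49.4, 38.3 and 44.7 TPM, Reps1 42.8, 46.6 and 42.9 TPM, Adpgk 30.6, 34.1 and 34.7 TPM, and Irgq 11.1, 12.4 and 12.9 TPM. The 7 mismatch repair and polymerase genes had a median CV of 3.79%, the lowest of the lists. Msh6, a mismatch repair gene, measured 58.4, 57.9 and 52.9 TPM. Pold1, the catalytic subunit of a replicative polymerase, measured 40.3, 38.7 and 40.1 TPM.

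Among the stromal lists, fibroblast genes were highest, with a median of 121 TPM. Bulk RNA does not tell which cells, host or cancer, made these transcripts. Col3a1 (fibrillar collagen) measured 2089, 2467 and 2744 TPM, Mmp2 (a gelatinase) 801, 968 and 836 TPM, and the proteoglycan Dcn 579, 636 and 925 TPM. CK_3 was the highest tumor in 13 of 18 fibroblast genes, against 36.5% of genes above 0 TPM. Col1a1, at 128, 133 and 242 TPM, lay below Col1a2, at 292, 298 and 349 TPM, in every tumor although both chains build type I collagen. Fap, a protease of activated fibroblasts, was low at 2.22, 2.11 and 2.97 TPM.

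Vessel markers were lower, with a median of 12.2 TPM over 14 endothelial genes. Plvap measured 33.6, 35.9 and 41.7 TPM, Pecam1 (CD31) 30.5, 30.8 and 41.0 TPM, and Cdh5 (VE-cadherin) 20.4, 27.5 and 33.6 TPM. CK_1 was the lowest tumor in 13 of 14, against 39.3% of genes above 0 TPM, and CK_3 the highest in 12 of 14, against 36.5%. Among genes with a mean of at least 1 TPM, these shares were 44.4% and 34.6%. The summed level of the list was 172, 203 and 254 TPM. Among genes of pericytes and smooth muscle, Pdgfrb measured 55.0, 64.2 and 67.5 TPM, Mcam 32.6, 41.6 and 47.2 TPM, and Cspg4 37.7, 38.4 and 36.1 TPM. Lymphatic markers were few, since Prox1 did not exceed 0.05 TPM while Lyve1 measured 9.81, 5.87 and 2.79 TPM and Flt4 between 1.81 and 2.02 TPM. Pdpn, at 210, 209 and 204 TPM, is also made by fibroblasts and tumor cells.

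**Figure D2:**
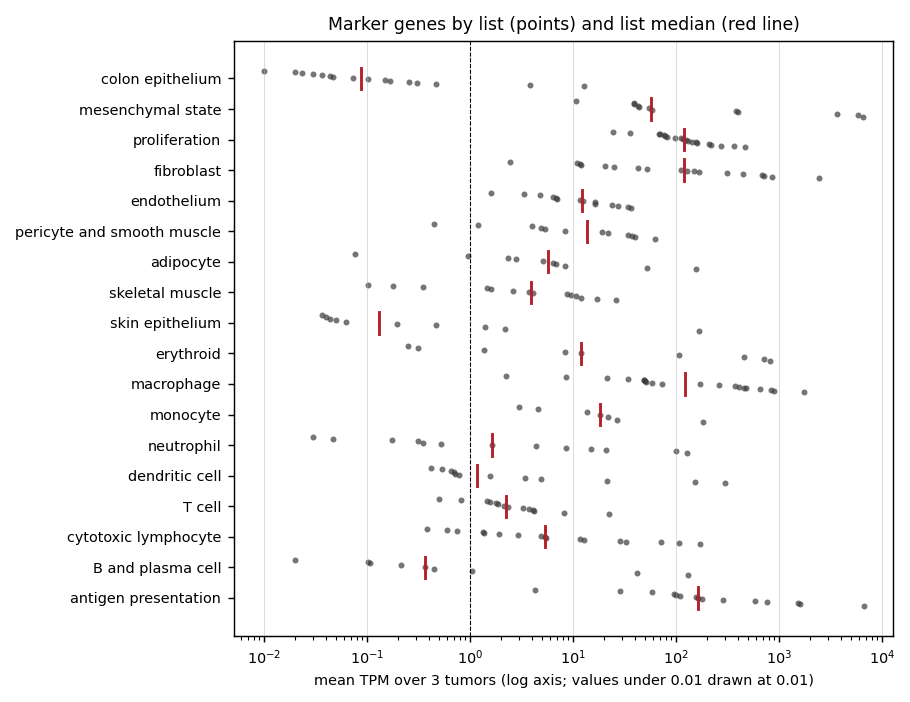
Mean TPM over the 3 vehicle-treated tumors (log axis) of each marker gene, by list, with the list median as a red line and 1 TPM dashed. Colon epithelium has a median of 0.0883 TPM, while proliferation, fibroblast and macrophage lists each exceed 100 TPM.

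Macrophage markers were the highest among the immune cell types. The 20 markers had a median of 123 TPM. Lyz2, the myeloid lysozyme, measured 1754, 1656 and 1925 TPM, Apoe 755, 889 and 1043 TPM, and the lysosomal protease gene Ctsb 798, 841 and 865 TPM. The complement genes C1qa, C1qb and C1qc, made by tissue macrophages, lay between 333 and 518 TPM in every tumor. Arg1, an arginine-consuming enzyme of suppressive myeloid cells, measured 244, 221 and 316 TPM. CK_3 was the highest in 15 of 20 members, against 36.5% of genes above 0 TPM. Cd14 carried the widest difference, at 34.7, 28.0 and 84.5 TPM. Lyz2, by comparison, had a CV of 7.65%.

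T-cell and B-cell transcripts were mostly far lower. The 17 cytotoxic lymphocyte genes, described further below, had a median of 5.36 TPM, but Gzmf among them reached 247 TPM in CK_1. The median of 14 T-cell genes was 2.25 TPM, and the constant chains of the T-cell receptor were not analysed here. Tcf7 was the highest at 22.5, 22.9 and 21.9 TPM, followed by Cd3g at 8.95, 5.59 and 9.93 TPM and Cd8a at 4.13, 3.42 and 5.16 TPM. Cd4 measured 2.82, 1.77 and 1.81 TPM, and the regulatory factor Foxp3 0.55, 0.88 and 0.67 TPM. Of regulatory T-cell genes, Tnfrsf18, Tnfrsf4 and Ctla4 were the highest, with 6.69, 6.47 and 8.23 TPM, 5.37, 4.91 and 6.87 TPM, and 1.56, 1.52 and 1.86 TPM. B-cell genes were near 0, as Ms4a1 (CD20) did not exceed 0.06 TPM. The top of that list, Xbp1 at 129, 148 and 118 TPM, Sdc1 at 39.5, 39.4 and 47.7 TPM and then Cd79b at 0.95, 0.70 and 1.49 TPM, is led by genes that secretory and epithelial cells also express.

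Dendritic-cell genes were mostly low, with a median of 1.175 TPM over 12 genes, of which 6 had a mean of at least 1 TPM. The list was led by Bst2, an interferon-induced tether of virions, at 239, 212 and 442 TPM. Fscn1 followed at 145, 169 and 149 TPM and Irf8 at 22.5, 19.7 and 22.6 TPM. The defining cross-presenting markers Clec9a and Xcr1 did not exceed 0.86 and 0.50 TPM. Mast-cell proteases Tpsb2, Mcpt4 and Cma1 lay between 2.50 and 6.47 TPM. Monocyte genes had a median of 18.2 TPM over 7 genes and were led by Vcan at 162, 207 and 180 TPM. Plac8 measured 16.7, 14.5 and 50.1 TPM and Ccr2 22.3, 20.8 and 22.3 TPM. Vcan was highest in CK_2, whereas 6 of the 7 were highest in CK_3, against 36.5% of genes above 0 TPM.

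Pdcd1, on chromosome 1 (94038305 to 94052553, GRCm38.p6), measured 1.45, 1.46 and 2.29 TPM (1.73 ± 0.482, SD, n = 3) and ranked 11856 of 18211 genes. These levels rested on 25, 24 and 38 counts. Cd274, its ligand, measured 15.1, 11.3 and 27.6 TPM, with CK_3 above the others and a ratio of highest to lowest of 2.43. The ligand exceeded the receptor by 10.1 ± 2.16 (SD, n = 3) in TPM. Pdcd1lg2, the other ligand, did not exceed 0.88 TPM. The highest checkpoint genes were Lgals9 at 187, 154 and 244 TPM, and Cd47 and Sirpa, the ligand and receptor of the signal that blocks engulfment, at 70.6, 73.9 and 68.3 TPM and 67.3, 65.9 and 70.0 TPM. Lag3, Tigit and Ctla4 of T cells lay between 1.52 and 4.18 TPM.

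In the IGF system, the highest binding proteins lay far above the receptors, and the ligands were low. The 4 receptor genes had a median of 15.8 TPM, below the 23.2 TPM of all genes with a mean of at least 1 TPM. Igf1 measured 1.79, 2.98 and 2.83 TPM (121, 189 and 183 counts), and Igf2 only 0.59, 0.43 and 0.31 TPM (13, 12 and 10 counts). The insulin genes were not analysed here. Igf1 exceeded Igf2 in every tumor, and both lay below Igf2r, Igf1r and Insr.

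Igf1r, the target of PB-020, on chromosome 7 (67952257 to 68233668), measured 18.0, 21.4 and 21.4 TPM (20.3 ± 1.97, SD, n = 3) and ranked 6749 of 18211 genes. Its CV was 9.71%. Igf2r, the clearance receptor of IGF2, measured 37.2, 42.7 and 42.8 TPM, and Insr, the insulin receptor, 9.84, 12.4 and 11.5 TPM. The orphan member Insrr measured 0.66, 0.40 and 1.14 TPM. The order Igf2r, Igf1r, Insr, Insrr held in all 3 tumors with no overlap between neighbours. Igf2r exceeded Igf1r by 2.02 ± 0.0401 and Igf1r exceeded Insr by 1.80 ± 0.0729 (SD, n = 3 each), so the ratios varied less than the levels.

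Among binding proteins, Igfbp4 was highest at 483, 553 and 455 TPM and ranked 253 of all genes. Igfbp6, which prefers IGF2, measured 258, 295 and 203 TPM, Igfbp3, the main carrier of serum IGF, 154, 214 and 227 TPM, and Igfbp7 116, 114 and 161 TPM. Igfbp4 lay above Igfbp6 without overlap, whereas Igfbp6 and Igfbp3, and Igfbp3 and Igfbp7, overlapped. Igfbp5 followed at 11.8, 10.4 and 9.15 TPM, well apart from Igfbp7. Igfbp2 and Igfals did not exceed 0.52 and 0.33 TPM, Igfbp1 was listed at 0, and the proteases Pappa and Pappa2, which cleave IGF-binding proteins, did not exceed 0.06 and 0.21 TPM.

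Of 58 receptor tyrosine kinases listed, 55 were in the table, and 33 reached 1 TPM in every tumor while 14 reached 10 TPM. Axl, a receptor for Gas6, was the highest at 626, 657 and 572 TPM and ranked 206 of all genes. It gave 47.4%, 45.4% and 43.1% of the summed TPM of the family. Fgfr1 followed at 140, 169 and 143 TPM, so that Axl exceeded it by 4.13 ± 0.311 (SD, n = 3). Neither overlapped its neighbours in the order.

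Below them, Csf1r, Ddr2, Epha2, Pdgfrb and Ryk formed a run in which each overlapped the next. Csf1r, the macrophage growth factor receptor, measured 70.0, 70.4 and 81.4 TPM, and Ddr2, a collagen receptor of mesenchymal cells, 65.4, 78.3 and 71.8 TPM. Epha2 measured 68.6, 61.9 and 59.3 TPM, and Ryk, a Wnt receptor, 54.6, 64.0 and 51.3 TPM. Ephb4, at 33.2, 38.2 and 35.5 TPM, overlapped neither side.

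Ptk7, Pdgfra, Ddr1 and Igf1r then overlapped from each to the next, between 18.0 and 28.1 TPM. Met, the receptor of HGF, measured 15.6, 15.1 and 17.4 TPM and Erbb2 15.3, 15.4 and 15.8 TPM. The 15 highest closed with Flt1, a VEGF receptor, at 9.34, 14.22 and 11.98 TPM. Egfr was low, at 1.80, 1.33 and 2.24 TPM, and Erbb4 was listed at 0. None of the 33 differed 2-fold between tumors. Over all 12444 genes with a mean of at least 1 TPM 561 did (4.51%), so a count of 0 in 33 is near the share over all genes.

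**Figure D3:**
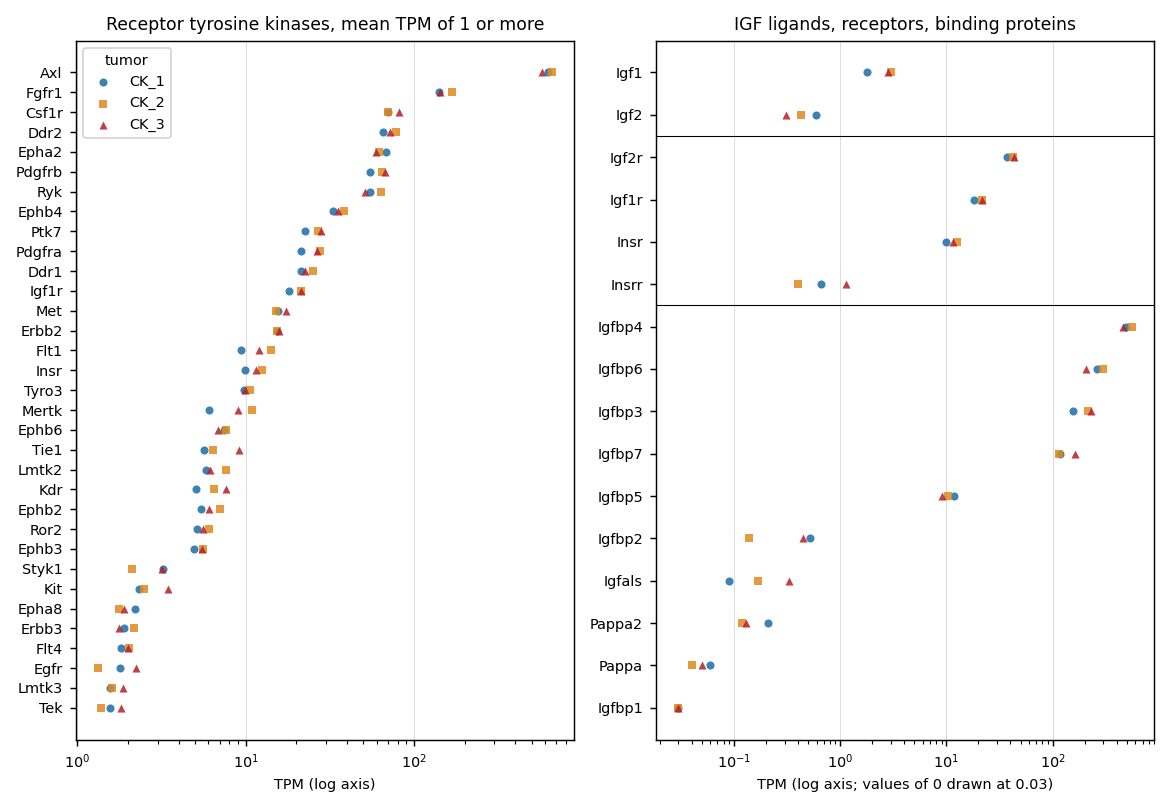
TPM (log axis) in CK_1, CK_2 and CK_3 of the receptor tyrosine kinases with a mean of at least 1 TPM (left) and of IGF ligands, receptors and binding proteins, separated by lines (right). Axl lies at 572 to 657 TPM, Igf1r at 18.0 to 21.4 TPM, and Igf1 and Igf2 lie below 3 TPM.

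Ligands of these receptors were led by Vegfa, Il34 and Csf1. Il34 and Csf1, which share Csf1r as receptor, measured 131, 120 and 108 TPM and 88.4, 77.5 and 107 TPM. Their order was clear in CK_1 and CK_2, but the values were nearly equal in CK_3 (ratio 1.01). Kitl, the ligand of Kit, measured 29.1, 39.7 and 34.2 TPM. For Axl, Pros1 (which acts on its relatives Tyro3 and Mertk) measured 33.5, 32.7 and 33.3 TPM and Gas6 16.8, 18.0 and 14.0 TPM, far below the receptor itself. Hgf, the ligand of Met, measured 1.44, 1.90 and 1.77 TPM. Angpt2, a vessel-destabilising ligand of Tie2, measured 8.55, 17.4 and 22.1 TPM, with CK_1 apart from the others.

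Pdgfa measured 64.4, 70.6 and 50.8 TPM and Vegfb 60.2, 61.4 and 51.7 TPM. EGF-family ligands were low, with Btc at 8.31, 12.9 and 9.23 TPM, Hbegf at 9.16, 7.55 and 9.10 TPM and Nrg1 at 7.75, 6.89 and 8.17 TPM. Genes of the FGF family, not all of which encode ligands of Fgfr1, were lower than Fgfr1. The highest, Fgf14, Fgf11 and Fgf7, were at no more than 7.66 TPM, and Fgf3, Fgf6 and Fgf12 were listed at 0. In the TGF-beta family, Tgfb1 measured 80.2, 83.0 and 93.7 TPM and Tgfbr2 50.12, 49.97 and 52.26 TPM. Bmp1, also on that list, measured 103, 101 and 118 TPM, but it is a procollagen-processing protease and not a family ligand or receptor.

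Downstream of IGF-1R, 37 of 38 genes of the PI3K and AKT pathway had a mean of at least 1 TPM, and the median of the list was 22.7 TPM. None of the 37 differed 2-fold between tumors, which is near the share of 4.51% over all genes at that level. Eif4ebp1, the translation repressor that mTOR inactivates, was the highest at 582, 589 and 608 TPM, followed by Akt1 at 200, 212 and 192 TPM and Rheb, the activator of mTOR, at 115, 123 and 128 TPM. Akt1 exceeded Akt2 by 3.57 ± 0.150 (SD, n = 3). Irs2 measured 26.9, 30.0 and 28.4 TPM, above Irs1 at 5.19, 5.70 and 5.49 TPM in every tumor. The catalytic subunit gene Pik3ca measured 27.8, 31.9 and 28.0 TPM. CK_2 was the highest tumor in 26 of 38 members, against 39.4% of genes above 0 TPM. Among genes with a mean of at least 1 TPM, that share was 45.1%.

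The wide differences between tumors lay elsewhere, in genes of neutrophils, inflammation, fat, muscle, blood and interferon response. The 15 genes with the largest ratio of highest to lowest tumor were all highest in CK_3. They were Stfa2l1, Lcn2, Cfd, S100a9, Gm5483, Slpi, S100a8, Saa3, Il1b, Cxcl2, Il1a, Cxcl1, Slfn4, Retnlg and Hcar2. The ratio ran from 180 for Stfa2l1, at 0.77, 0.41 and 73.8 TPM, to 24.1 for Hcar2, at 2.75, 1.69 and 40.7 TPM. The ratio of Stfa2l1 rests on 2, 1 and 183 counts, and its exact 95% binomial counting interval runs from 32.9 to 7379. Stfa2l1 and Gm5483 are similar stefin genes with equal values in CK_1 and CK_2, so their reads may be shared.

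All 13 neutrophil genes were highest in CK_3, against 36.5% of genes above 0 TPM. S100a9 and S100a8, the subunits of calprotectin, a major cytosolic protein of neutrophils, measured 4.42, 4.92 and 379 TPM and 4.62, 4.46 and 292 TPM. These levels rested on 16, 17 and 1324 counts for S100a9 and on 11, 10 and 666 for S100a8. Mmp9 measured 11.1, 16.1 and 35.2 TPM, and Csf3r, the receptor of G-CSF, 2.61, 3.02 and 19.9 TPM. CK_1 and CK_2 were alike and CK_3 far above them. Granule genes of neutrophil precursors stayed low in CK_3 as well, with Elane at 0.14, Mpo at 0.09 and Camp at 0.95 TPM.

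Genes of acute inflammation, a list written after the values were seen, were highest in CK_3 in all 26 cases, against 36.5% of genes above 0 TPM. Saa3, an acute-phase protein, measured 7.53, 10.8 and 462 TPM, and Il1b, the inflammasome cytokine, 8.53, 4.12 and 202 TPM. Lcn2, a siderophore-binding protein of neutrophils, measured 1.32, 1.85 and 160 TPM. The neutrophil-attracting chemokines Cxcl1, Cxcl2 and Cxcl3 measured 3.70, 2.56 and 85.2 TPM, 4.19, 7.08 and 199 TPM, and 4.62, 4.99 and 99.98 TPM. Nfkbia, the inhibitor of NF-kappa B, moved least among the highest members, at 115, 121 and 203 TPM. Since these genes were gathered by their pattern, the count describes the tumor and is no evidence about the list.

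Genes of the wider chemokine list were highest in CK_3 in 22 of 25 cases, against 36.5% of genes above 0 TPM, and some of these are also on the inflammation list. The monocyte attractant Ccl2 was highest overall at 351, 255 and 566 TPM, followed by Ccl6 at 219, 197 and 248 TPM and Ccl8 at 136, 111 and 222 TPM. Ccl3 measured 10.3, 10.7 and 221 TPM, low in CK_1 and CK_2 and near Ccl8 in CK_3.

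The 3 Cxcl promoters are shown because these neighbouring genes shared the difference. The kappa B motif, the binding sequence of NF-kappa B, was searched on both strands in the 250 bases before each RefSeq start (GRCm38.p6) and is in capitals. The match reads almost the same from both strands, so the 2 matches in each promoter overlap and cover 11 bases. The stretches lie on the plus strand of chromosome 5, at chr5:90891159-90891199, chr5:90903787-90903827 and chr5:90786013-90786053.
Cxcl1: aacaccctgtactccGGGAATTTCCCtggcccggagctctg
Cxcl2: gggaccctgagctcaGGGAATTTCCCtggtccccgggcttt
Cxcl3: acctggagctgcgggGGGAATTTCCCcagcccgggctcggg
The capitals are identical in the 3 genes, and the last match ended 60, 86 and 62 bases before the start. Of 20 inflammation genes with a promoter in the RefSeq table, 6 (30.0%) held the motif, against 4.46% of all 27025 genes of that table and 5.45% of those with a mean of at least 1 TPM. By window, 3.90% of all 32851 held it. The others with a match were Il6, Nfkbia and Tnfaip3. A match describes letters only and does not show binding. The inflammation list was written after the values were seen, so the higher share describes its promoters and not these tumors.

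Adipocyte genes formed another block. The adipokine Adipoq had no count in CK_1 or CK_2 and 210 counts in CK_3 (20.8 TPM), which is at least 71.1-fold higher against 3 counts in a library. Pck1 likewise had no count in CK_1 or CK_2 and 161 in CK_3, at least 54.5-fold higher. Cfd (adipsin) measured 1.45, 1.40 and 153 TPM, and Fabp4, the fatty acid carrier of adipocytes and some endothelium, 70.2, 85.4 and 321 TPM. The exceptions were Plin4, at 7.27, 9.18 and 8.50 TPM, and Lep, which did not exceed 0.13 TPM. CK_3 was the highest in 8 of 10 members, against 36.5% of genes above 0 TPM. Car3, another gene of fat and muscle, measured 9.12, 5.23 and 122 TPM.

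Skeletal muscle genes ran the opposite way. CK_1 was the highest tumor in 13 of 14 members, against 21.7% of genes above 0 TPM, and CK_3 the lowest in 11, against 28.6%. Acta1, the skeletal actin gene, measured 43.49, 23.69 and 11.99 TPM, Mylpf 26.2, 14.7 and 10.6 TPM, and Myl1 20.5, 10.6 and 5.02 TPM. Epidermal genes were near 0 with a median of 0.13 TPM, except for Krt14 at 202, 140 and 160 TPM. Its partner Krt5 measured 3.18, 1.01 and 0 TPM, and Krt10 1.87, 3.21 and 1.49 TPM. Krt14 was thus not accompanied by the other keratins of skin. Among nerve genes Pmp22 measured 288, 296 and 248 TPM and Mbp 3.07, 3.14 and 3.20 TPM, while Sox10, which defines Schwann cells, did not exceed 0.17 TPM.

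Red-cell transcripts were lowest in CK_3 in all 9 genes of the list in the table, against 28.6% of genes above 0 TPM. Hbb-bs measured 1035, 828 and 600.5 TPM and Hba-a1 937, 878 and 352 TPM. Hba-a2 measured 640, 540 and 207 TPM and has a near-identical copy in Hba-a1, so their split is uncertain. All 6 hemoglobin genes together took 0.275%, 0.238% and 0.121% of TPM. Platelet genes did not follow the red-cell genes, with Pf4, which macrophages also express, at 167, 136 and 255 TPM, Ppbp at 1.65, 0.93 and 8.14 TPM, and Gp1bb at 3.53, 3.50 and 3.88 TPM.

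**Figure D4:**
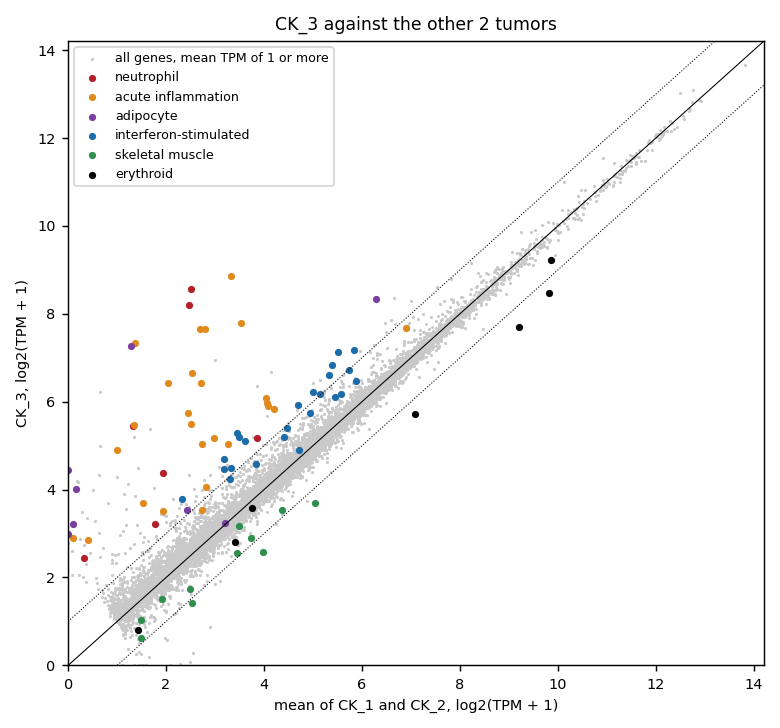
Level in CK_3 against the mean of CK_1 and CK_2, both as log2(TPM + 1), for genes with a mean of at least 1 TPM (grey), with equality as a solid line and 2-fold differences in TPM + 1 as dotted lines. Neutrophil, acute inflammation, adipocyte and interferon-stimulated genes lie above the diagonal, and hemoglobin and skeletal muscle genes below it.

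The interferon-stimulated list was written after the values were seen. Its 24 genes were all highest in CK_3, against 36.5% of genes above 0 TPM. CK_2 was lowest in 23 of 24, against 23.3%. Since the list was written with these values known, the counts describe the tumors and are no evidence about the list. Isg15, a ubiquitin-like modifier, measured 54.9, 36.6 and 140 TPM. Oasl2 measured 63.6, 49.1 and 144 TPM, and the nucleic acid sensor gene Zbp1 57.0, 48.2 and 105 TPM. The median ratio of CK_3 to the mean of the other tumors was 2.33.

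The guanylate-binding and immunity-related GTPases, effectors induced by interferon-gamma against pathogens inside cells, were low in CK_2 as well. They were also gathered after the values were seen, so their counts are no evidence about the list either. All 18 were lowest in CK_2, against 23.3% of genes above 0 TPM. CK_1 was the highest in 6 and CK_3 in 12 genes, against 21.7% and 36.5%. Gbp2 measured 269, 129 and 245 TPM, Irgm1 150.02, 100.2 and 199.6 TPM, and Igtp 172, 86.8 and 163 TPM. CK_1 and CK_3 thus lay close together for Gbp2 and Igtp, with CK_2 well below.

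Antigen presentation genes were ordered alike in 15 of 15 cases, with CK_3 highest and CK_2 lowest, against 36.5% and 23.3% of genes above 0 TPM. H2-D1 measured 1605, 1411 and 1795 TPM and H2-K1 1605, 1248 and 1805 TPM, though reads of similar MHC genes can be split between them. Psmb9, an immunoproteasome subunit, measured 116, 70.5 and 147 TPM. Of the genes of MHC class II presentation, Cd74 measured 761, 642 and 928 TPM and H2-Aa 615, 465 and 676 TPM. In the checkpoint list CK_3 was highest in 14 and CK_2 lowest in 13 of 19 genes, against the same 36.5% and 23.3%.

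Cytotoxic genes were lowest in CK_2 in 14 and highest in CK_1 in 13 of 17 cases, against 23.3% and 21.7% of genes above 0 TPM. Gzmf measured 247, 95.2 and 177 TPM, Gzmd 158, 61.3 and 107 TPM, and Gzmc 101, 44.2 and 72.0 TPM. Gzmb, the granzyme of cytotoxic T and NK cells, measured 38.6, 15.7 and 32.1 TPM, and the pore-forming Prf1 16.46, 6.94 and 15.16 TPM. Granzymes C to G are neighbouring paralogs, so reads may be shared among them. Nkg7, a protein of cytotoxic granules, measured 13.0, 10.1 and 11.8 TPM. Ifng itself was low, at 1.46, 1.33 and 1.31 TPM. Its part in the difference of the GTPases was not tested.

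The interferon response element, written GAAANNGAAA where N is any base, was searched the same way, and promoters of both gene groups are shown because both were low in CK_2. It lay within the 250 bases before the start in 8 of 18 interferon-stimulated genes (44.4%) and in 11 of 12 GTPase genes (91.7%) with a promoter in the table, against 3.46% of all genes of that table and 3.40% of those with a mean of at least 1 TPM. By window, the share was 2.98%. In capitals are all matches on either strand, with the opposite strand reading as thymines and cytosines. Isg15 (chr4:156200860-156200911) and Irgm1 (chr11:48871421-48871465) are on the minus strand. Ifit1 (chr19:34640770-34640828), Gbp2 (chr3:142620589-142620628), Gbp3 (chr3:142559984-142560029), Igtp (chr11:58199507-58199546) and Irgm2 (chr11:58214898-58214937) are on the plus strand.
Isg15: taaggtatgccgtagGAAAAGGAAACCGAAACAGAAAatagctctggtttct
Ifit1: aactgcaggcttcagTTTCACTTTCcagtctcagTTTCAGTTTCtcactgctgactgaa
Gbp2: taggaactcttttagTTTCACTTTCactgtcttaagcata
Gbp3: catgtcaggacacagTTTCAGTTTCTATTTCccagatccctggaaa
Igtp: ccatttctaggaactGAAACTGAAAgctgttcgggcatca
Irgm1: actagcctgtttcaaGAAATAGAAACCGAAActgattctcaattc
Irgm2: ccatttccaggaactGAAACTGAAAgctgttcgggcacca
Isg15 held 3 overlapping matches, Ifit1 held 2 separate ones and Gbp3 and Irgm1 held 2 overlapping ones. This motif and the kappa B motif both occurred in 40 of the 32851 windows and overlapped in 2. The 2 gene groups are known interferon targets, so the high share describes their promoters and not these tumors.

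**Figure D5:**
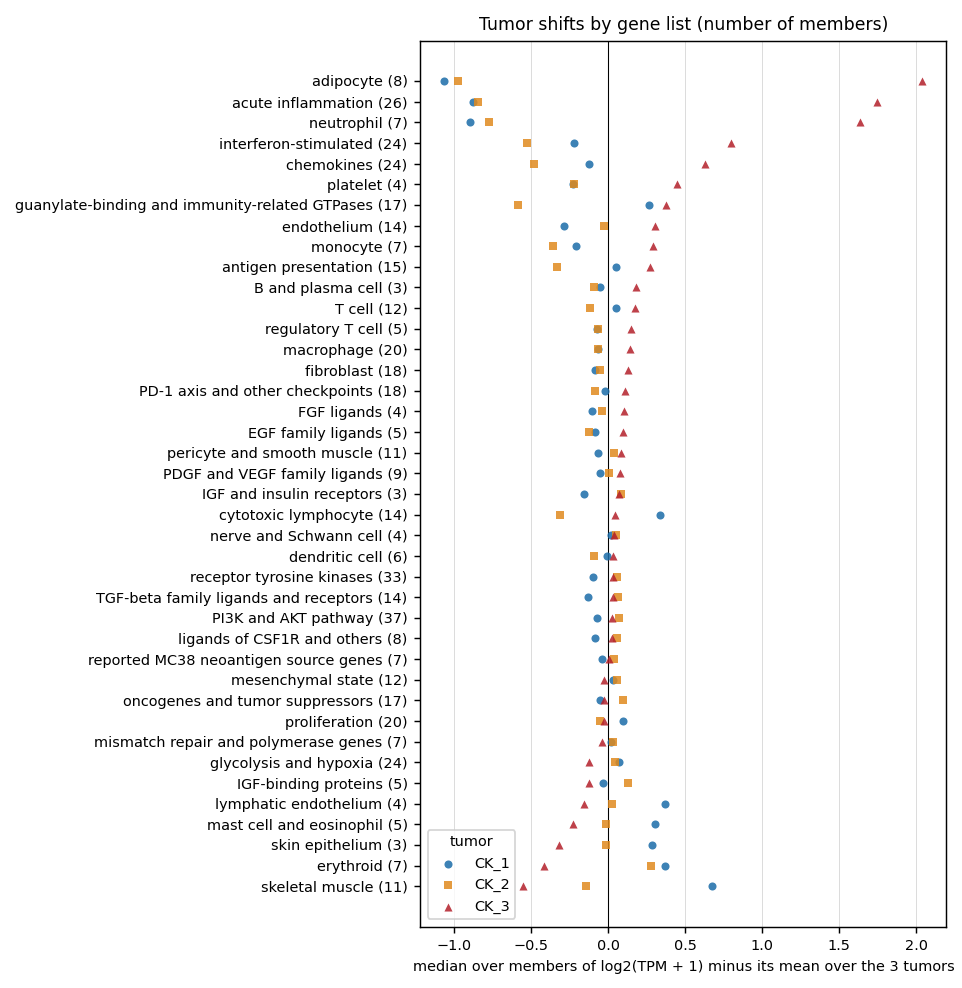
For each gene list, the median over members with a mean of at least 1 TPM (number in brackets) of log2(TPM + 1) minus its mean over the 3 tumors, for CK_1, CK_2 and CK_3; lists with fewer than 3 such members are left out. Adipocyte, acute inflammation and neutrophil lists have CK_3 at 2.04, 1.75 and 1.64, while receptor tyrosine kinases and the PI3K and AKT pathway lie within 0.10 of 0 for all tumors.

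The share of neutrophil, fat, muscle or blood cells in each piece of tissue was not measured, and its part in these differences was not tested. Neutrophil genes summed to 27.2, 32.6 and 786 TPM, adipocyte genes to 83.3, 101 and 547 TPM, muscle genes to 157, 84.4 and 55.2 TPM and red-cell genes to 2775, 2400 and 1230 TPM. With 3 tumors, an exact sign permutation test of a pair of genes cannot go below p = 0.25, so orders are given by overlap of values and not by test.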

How the data were processed

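RNA of ground tumors was sequenced on an Illumina HiSeq X as paired reads. According to the methods, reads were aligned with Bowtie2 and quantified with RSEM. The submitters' notes name HISAT, Bowtie2 and GRCm38.p6, with no versions. The authors deposited expected counts, which RSEM estimates and which were whole in 91.0% of values. The deposited TPM and FPKM values are scaled by the authors for library total and effective length. No mitochondrially encoded gene was in the table. Of 18211 genes, 18091 (99.3%) matched RefSeq genes by number, from which coordinates and promoters were taken.

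Only columns of the 3 CK tumors were used, and no treatment was compared. The authors' group averages were not used. Levels, SDs and CVs were computed from TPM with Python 3.11.15 and pandas 2.3.3. Expected counts, rounded, were scaled by TMM with edgeR 4.0.16 in R 4.3.3 as an alternative, and no p-value was computed. The calculations were tested on simulated data. A promoter motif was counted once per gene over all its starts, and the 50 bases after a start were not read.

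The genes named are the 20 with the highest mean TPM, the 3 highest members of each list, members listed at 0 in all tumors, all IGF ligands, receptors and binding proteins, the 15 highest receptor tyrosine kinases, Igf1r, Pdcd1, and the 15 genes with the largest ratio of highest to lowest tumor among those with a mean of at least 10 TPM. Further genes were named after their values were seen. Some genes that this rule names are not reported here. Members and lists were chosen with earlier results of these data known, and the lists of interferon-stimulated, acute inflammation and GTPase genes after the values of these tumors were seen. Nothing in the labels says more of how the tumors differ than their number.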

Additional observations from a re-analysis of the deposited data

How the results depend on the processing

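The number of genes reaching the minimum in every tumor changed by less than 1.5-fold with a minimum of 0.5 or 5 TPM, with FPKM, or with any tumor left out. The share of the 100 most abundant genes fell from 34.8% to 25.9% without ribosomal protein and hemoglobin genes, and was 18.1% of expected counts, which are not corrected for length. The median CV was 7.32% with TMM-scaled CPM, 6.59% for genes with a mean of at least 10 TPM, and 10.5% with no filter, and lay between 6.36% and 6.69% with a tumor left out. The median SD of log2 levels was 0.11 with a pseudocount of 0.1, and lay between 0.085 and 0.090 with a tumor left out. Genes differing 2-fold numbered 561 at a mean of at least 1 TPM and 159 by TMM, and ran from 21 without CK_3 to 122 without CK_1, with 94 without CK_2. Of 42 gene lists, the highest tumor was the same in 37 by TMM, 39 with a pseudocount of 0.1 and 36 by summed TPM. Of 33 receptor tyrosine kinases, 31 kept their rank with FPKM, and 21 to 25 with a tumor left out, the fewest without CK_3. The mean of S100a9 was 129 TPM over 3 tumors and 4.67 TPM without CK_3. No paired analysis was possible because no result comes from a test. Depth limits genes such as Pdcd1 and Igf2, whose levels rest on few counts.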

Other observations

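Some genes outside the lists also differed between the vehicle-treated tumors and were chosen after their values were seen; values are in TPM for CK_1, CK_2 and CK_3. The iron-handling genes Tfrc, the transferrin receptor, and Hmox1, heme oxygenase, were highest in CK_3, at 17.5, 17.2 and 53.9 and at 106.6, 151 and 314. Fth1, the ferritin heavy chain, measured 1844, 2026 and 2988, also highest there. CK_2 was highest for the circadian gene Per1, at 27.2, 52.8 and 23.7, and for the repressor gene Bcl6, at 8.89, 20.79 and 10.03. CK_1 was lowest for the endothelial tip-cell gene Esm1, at 6.96, 18.1 and 20.5, as it was for Angpt2. Slurp1, a secreted epithelial protein, was highest in CK_1 at 98.8, 49.4 and 40.7.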
